A study of Mus musculus with 6 samples.

Results

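AMP-activated protein kinase (AMPK) was examined as 8 genes of the deposited expression table. These were the catalytic subunits *Prkaa1* and *Prkaa2*, the scaffold subunits *Prkab1* and *Prkab2*, the nucleotide-binding subunits *Prkag1* and *Prkag2*, and the upstream kinases *Stk11* and *Camkk2*. The genes were taken by name, as the subunits and activating kinases of AMPK, from 55774 entries, with earlier results of these data known, and all 8 were found by their Ensembl identifiers. RNA had been sequenced from mouse blastocysts of wild-type genotype, obtained as 2-cell embryos from ICR females and grown in CZB medium to which vesicles from human Fallopian tubes had been added. The comparison asks whether vesicles of donors with endometriosis change the transcripts of the embryo. In the oEV-EMT group the vesicles came from women with endometriosis (3 libraries), and in the oEV-ctrl group from women whom the labels describe as having uterine fibroids (3 libraries). The methods of the study give another gynaecological condition for the control donors. Every library was a pool of 10 blastocysts, and both groups received human vesicles, so that embryos without vesicles are not part of the comparison. The labels do not say whether the libraries of a group came from separate vesicle preparations or litters, and p-values measure only the spread between these libraries.

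AMPK is the kinase by which cells sense a shortage of energy. A complex joins a catalytic α subunit, a scaffold β subunit and a γ subunit that binds AMP, ADP and ATP, each encoded by several genes. LKB1, encoded by *Stk11*, and CAMKK2, which responds to calcium, switch the complex on by phosphorylating the activation loop of the α subunit. Active AMPK lowers fatty acid and sterol synthesis and mTORC1 signalling, and raises fatty acid oxidation, autophagy and mitochondrial fission. These steps act on proteins, whereas the present data are transcript levels.

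The values were FPKM, fragments scaled to transcript length and to the size of the library, which allow levels of different genes to be compared. The sum of FPKM lay between 1293175 and 1551567 per library. In genes with a single annotated transcript, the most frequent step among low values was found in each library. The relative depth of the libraries was read from it. This step held 102 of 1807 low values in oEV-EMT 1 and 142 of 1583 in oEV-ctrl 1. Values at 1/2 of the step numbered 52 and 83, so the depth is a rough estimate. By this estimate the deepest library, oEV-EMT 1, had 2.07 times the depth of the shallowest, oEV-ctrl 1, and the other 4 lay between 1.21 and 1.83 times. A gene entered the test when its FPKM was at least 1 in at least 3 libraries, which left 11924 genes, and 6 of the 8 AMPK genes passed. *Prkaa2* and *Camkk2* stayed below 1 FPKM in all 6 libraries and are given as values. Differences are on the scale of log2(FPKM + 1), oEV-EMT minus oEV-ctrl, and are understated for genes with low values. The median difference of all tested genes was 0.17, and differences relative to it are named as such.

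The transcript levels of the AMPK genes covered a wide range, and in every subunit class 1 gene held most of the signal. *Prkab1* was highest, with a mean FPKM of 33.8 over the 6 libraries, followed by *Prkag1* with 28.4. *Prkag2* (7.22), *Stk11* (6.25) and *Prkaa1* (5.60) lay in the middle, and *Prkab2* (1.39), *Prkaa2* (0.738) and *Camkk2* (0.180) were lowest. Among neighbours in this order, *Prkab1* lay above *Prkag1* in 4 of 6 libraries, *Prkag2* above *Stk11* in 4 of 6 and *Stk11* above *Prkaa1* in 4 of 6, so these neighbours did not differ beyond their spread. The steps from *Prkag1* to *Prkag2*, from *Prkaa1* to *Prkab2*, from *Prkab2* to *Prkaa2* and from *Prkaa2* to *Camkk2* held in 6 of 6 libraries. Of the tested genes, 78.2% had a lower mean FPKM than *Prkab1* and 42.5% a lower one than *Prkaa1*.

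**Figure D1:**
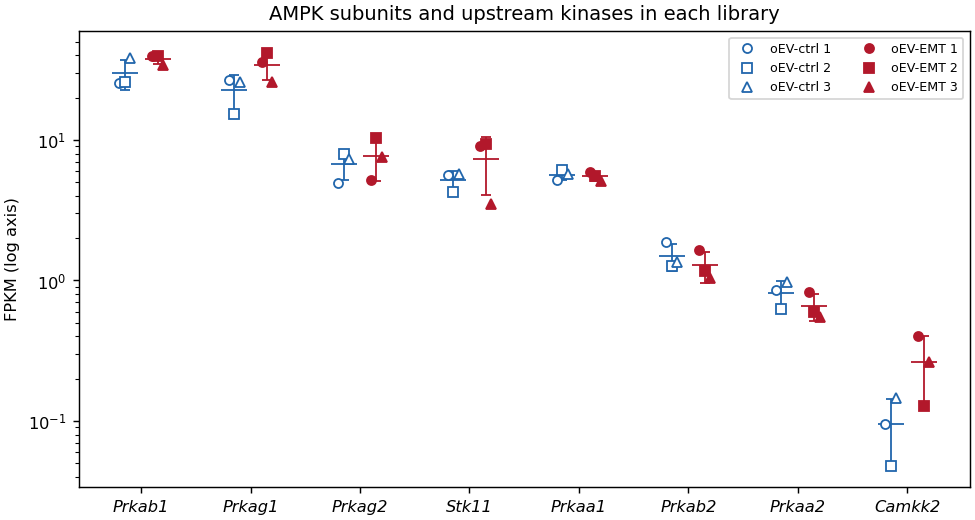
FPKM of the 8 genes in each library on a log axis, ordered by mean level; open blue symbols are oEV-ctrl and filled red symbols oEV-EMT, with the same symbol for the same replicate number, and bars show the mean ± SD of 3 libraries. The groups overlap in all 8 genes, and *Camkk2* lies lowest, between 0.0483 and 0.404 FPKM.

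The promoter windows of 4 genes are shown because they pair a higher and a lower gene of the same role, *Prkaa1* with *Prkaa2* and *Stk11* with *Camkk2*. The windows run from 250 bases before to 50 bases after the annotated start, 5′ to 3′ on the strand of the gene, from RefSeq on GRCm38.p6, and CG dinucleotides are in capitals. All 8 genes had a window in that table. *Prkaa1* lies on the plus strand (chr15:5143611-5143910), *Prkaa2* on the minus strand (chr4:105109849-105110148), *Stk11* on the plus strand (chr10:80115545-80115844) and *Camkk2* on the minus strand (chr5:122779361-122779660).
Prkaa1: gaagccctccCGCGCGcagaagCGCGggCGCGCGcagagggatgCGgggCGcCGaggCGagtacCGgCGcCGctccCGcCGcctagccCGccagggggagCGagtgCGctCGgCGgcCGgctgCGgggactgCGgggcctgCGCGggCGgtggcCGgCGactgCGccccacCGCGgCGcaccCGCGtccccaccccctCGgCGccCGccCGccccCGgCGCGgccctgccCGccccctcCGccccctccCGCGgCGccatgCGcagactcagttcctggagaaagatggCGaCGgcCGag
Prkaa2: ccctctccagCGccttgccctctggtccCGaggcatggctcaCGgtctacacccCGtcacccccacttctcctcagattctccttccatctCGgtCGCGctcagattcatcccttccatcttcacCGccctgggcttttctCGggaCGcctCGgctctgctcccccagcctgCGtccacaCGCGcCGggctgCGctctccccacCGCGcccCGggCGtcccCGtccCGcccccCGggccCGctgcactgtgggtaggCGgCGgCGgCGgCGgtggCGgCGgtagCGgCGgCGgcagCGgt
Stk11: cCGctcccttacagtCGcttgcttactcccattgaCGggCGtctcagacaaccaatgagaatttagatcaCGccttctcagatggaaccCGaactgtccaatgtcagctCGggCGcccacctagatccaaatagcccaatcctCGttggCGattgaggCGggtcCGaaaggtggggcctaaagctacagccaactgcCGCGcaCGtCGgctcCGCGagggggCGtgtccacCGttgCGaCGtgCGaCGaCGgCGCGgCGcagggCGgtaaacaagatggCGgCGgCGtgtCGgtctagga
Camkk2: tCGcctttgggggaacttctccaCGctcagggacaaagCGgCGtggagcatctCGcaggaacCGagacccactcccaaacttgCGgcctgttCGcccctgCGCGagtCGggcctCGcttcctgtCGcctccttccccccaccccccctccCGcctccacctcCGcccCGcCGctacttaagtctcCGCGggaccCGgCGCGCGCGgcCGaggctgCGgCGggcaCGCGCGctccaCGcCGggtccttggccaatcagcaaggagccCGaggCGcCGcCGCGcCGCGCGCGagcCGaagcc

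The 4 windows were rich in CG dinucleotides, with 52 in *Prkaa1*, 35 in *Prkaa2*, 33 in *Stk11* and 42 in *Camkk2*, against a median of 7 over 32851 windows of the same length. A window with at least as many CG dinucleotides made up 0.575% of all windows for *Prkaa1*, 6.95% for *Prkaa2*, 8.56% for *Stk11* and 3.03% for *Camkk2*. *Camkk2* had more of them than *Stk11*, although its transcript level was lower in every library. In the other genes the count was 30 for *Prkab1*, 23 for *Prkab2*, 16 for *Prkag1* and, for the 3 start sites of *Prkag2*, 6, 25 and 45. At least 1 CG dinucleotide was present in 94.6% of all windows.

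In oEV-EMT against oEV-ctrl, none of the 6 tested AMPK genes passed the thresholds of the study. These require an adjusted p-value no higher than 0.05 together with a log2 fold change no smaller than 1 in either direction. The study applied them with another test, DESeq2, and did report differentially expressed genes. Over all genes 0% passed (0 of 11924, limma with Benjamini-Hochberg adjustment), against 4, 1 and 16 genes without oEV-EMT 1, oEV-EMT 3 or oEV-ctrl 3. With no adjustment, at p no higher than 0.05, 0 of the 6 were higher and 0 lower, where 12.8% of all tested genes were higher and 2.55% lower. In 0 of the 6 did all oEV-EMT values lie above or below all oEV-ctrl values, compared with 18.1% of tested genes above and 4.34% below. The split over all genes depended on scaling, with 1527 higher and 304 lower genes at this p in the deposited values, 759 and 769 after median-of-ratios scaling, 536 and 972 after upper quartile scaling, and 1850 and 182 after scaling to a common total. The median of all genes was then 0.0091, -0.047 and 0.24 in place of 0.17. The adjusted p-values of the 6 genes lay between 0.326 and 0.959. The median of the 6 was 0.24 on the log2 scale and 0.06 once that of all genes was subtracted, and 3 genes lay on either side of the latter.

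**Figure D2:**
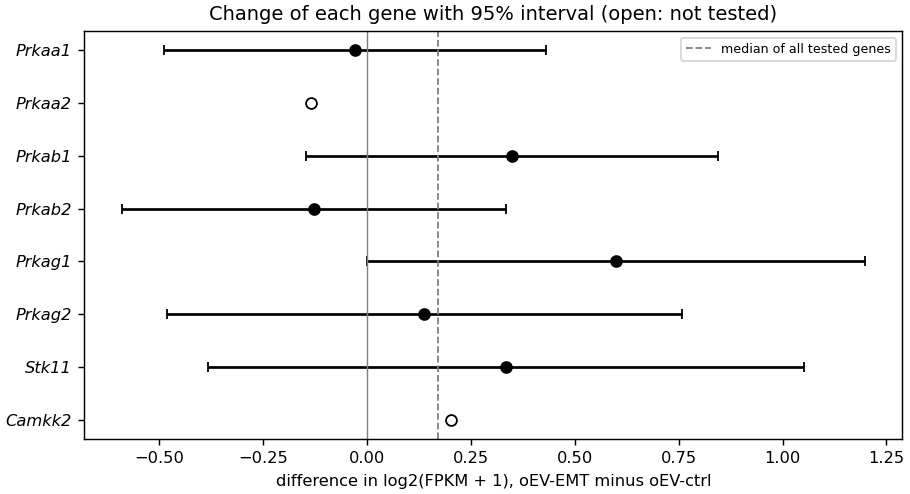
Difference in log2(FPKM + 1) between oEV-EMT and oEV-ctrl for each gene, with bars for the 95% interval from limma in the 6 tested genes and open symbols for the 2 genes that were not tested. Every interval includes 0, that of *Prkag1* only just, and the dashed line marks the median of all tested genes at 0.17.

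The catalytic subunit *Prkaa1* (ENSMUSG00000050697) is located on chromosome 15 (GRCm38) between 5143861 and 5181899. In FPKM, it had 5.92, 5.54 and 5.13 in oEV-EMT libraries 1, 2 and 3 and 5.18, 6.13 and 5.68 in oEV-ctrl libraries 1, 2 and 3. The libraries of both groups were interleaved, and no library stood apart. The means were 5.53 ± 0.395 (SD, n = 3) and 5.66 ± 0.477 (SD, n = 3), with a log2 fold change of -0.03 (SE, the standard error, 0.21, 95% interval -0.49 to 0.43, limma adjusted p = 0.959). Because most genes were slightly higher in oEV-EMT, the value relative to all genes was -0.20. After median-of-ratios or upper quartile scaling the 3 oEV-EMT values of *Prkaa1* were lower than each oEV-ctrl value, with 0.849 and 0.810 times the mean. After these scalings 769 and 972 of all genes were lower at unadjusted p no higher than 0.05 (limma), against 304 as deposited. The share of all genes lower without overlap was not computed for them. After scaling to a common total the ratio of the means of *Prkaa1* was 1.04.

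The other catalytic subunit gene, *Prkaa2* (ENSMUSG00000028518), lies on the minus strand of chromosome 4 from 105029874 to 105109890 and is known best from skeletal and cardiac muscle. It was low throughout, with 0.821, 0.599 and 0.550 FPKM in oEV-EMT and 0.852, 0.628 and 0.977 FPKM in oEV-ctrl. The 2 lowest values came from oEV-EMT and the 2 highest from oEV-ctrl, with 1 library of each group between them. The ratio of the means was 0.802 (p = 0.2, exact permutation test, two-sided, for which 3 libraries against 3 allow no p below 0.1). *Prkaa2* made up 12.2%, 9.77% and 9.68% of the catalytic subunit FPKM in oEV-EMT and 14.1%, 9.29% and 14.7% in oEV-ctrl. These shares overlapped between the groups (difference of -2.16 percentage points, exact permutation test, p = 0.4).

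The scaffold subunit β carries a glycogen-binding module and holds the complex together. *Prkab1* (ENSMUSG00000029513), at 116013586 to 116024508 on the minus strand of chromosome 5, had 39.6, 39.5 and 34.1 FPKM in oEV-EMT and 25.6, 25.8 and 38.1 FPKM in oEV-ctrl. A pair of oEV-ctrl libraries lay below all others, while oEV-ctrl 3 reached the level of the oEV-EMT libraries. The means were 37.7 ± 3.15 (SD, n = 3) and 29.9 ± 7.17 (SD, n = 3), a log2 fold change of 0.35 (SE 0.22, 95% interval -0.15 to 0.84, limma adjusted p = 0.479). Without library oEV-ctrl 3 it was 0.53, after median-of-ratios scaling 0.16 and after upper quartile scaling 0.09. *Prkab2* (ENSMUSG00000038205), at 97658193 to 97673812 on chromosome 3, had 1.65, 1.17 and 1.04 FPKM in oEV-EMT and 1.86, 1.26 and 1.36 FPKM in oEV-ctrl. Libraries oEV-ctrl 1 and oEV-EMT 1 were the highest, and the groups overlapped, with a log2 fold change of -0.13 (SE 0.21, limma adjusted p = 0.797). It was -0.025 without oEV-ctrl 1, -0.05 without oEV-EMT 3, -0.24 without oEV-EMT 1 and -0.28 after upper quartile scaling. The share of *Prkab2* in the scaffold subunit FPKM was 3.28 ± 0.622% in oEV-EMT and 4.96 ± 1.69% in oEV-ctrl (SD, n = 3 each; exact permutation test, p = 0.2).

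The γ subunit is the part of the complex that binds adenine nucleotides. *Prkag1* (ENSMUSG00000067713), on the minus strand of chromosome 15 from 98812797 to 98831521, had the largest log2 fold change of the 6 tested genes in the values as deposited. Its FPKM was 35.8, 41.4 and 25.8 in oEV-EMT and 26.5, 15.4 and 25.7 in oEV-ctrl. The lowest oEV-EMT library lay between the oEV-ctrl libraries, and oEV-ctrl 2 lay below all others. The means were 34.4 ± 7.89 (SD, n = 3) and 22.5 ± 6.19 (SD, n = 3), which is 1.52 times higher in oEV-EMT. The log2 fold change was 0.60 (SE 0.27, 95% interval from just below 0 to 1.20), or 0.43 relative to all genes, with an unadjusted p-value of 0.0501 and an adjusted p-value of 0.326 from limma. It was 0.36 without library oEV-ctrl 2, 0.41 after median-of-ratios scaling and 0.34 after upper quartile scaling. After scaling to a common total it was 0.68, and then the groups did not overlap.
*Prkag2* (ENSMUSG00000028944) lies on the minus strand of chromosome 5 from 24862744 to 25100642. It has 10 annotated transcripts, as has *Stk11*, while *Camkk2* has 11. *Prkag2* had 5.14, 10.3 and 7.53 FPKM in oEV-EMT and 4.97, 7.98 and 7.33 FPKM in oEV-ctrl. The lowest values were those of oEV-ctrl 1 and oEV-EMT 1, and oEV-EMT 2 lay above all other libraries, while the remaining values of the groups overlapped. The log2 fold change of 0.14 (SE 0.28, limma adjusted p = 0.837) was below the median of all genes and turned to -0.03 after median-of-ratios scaling and -0.09 after upper quartile scaling. *Prkag2* held 18.4 ± 5.19% of the FPKM of both γ genes in oEV-EMT and 24.0 ± 9.30% in oEV-ctrl (SD, n = 3 each; exact permutation test, p = 0.5). This difference of -5.66 percentage points rests on single libraries, since it was -0.61 without oEV-ctrl 2, -2.76 without oEV-EMT 1 and -9.77 without oEV-ctrl 1. The muscle gene *Prkag3*, which encodes another γ subunit, was listed at 0 in all 6 libraries.

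Since a complex holds 1 subunit of each class, the sums of the classes were also set against each other within each library, where scaling between libraries has no effect. The β genes together had 6.11, 6.63 and 6.18 times the FPKM of the α genes in oEV-EMT and 4.55, 4.01 and 5.93 times in oEV-ctrl. Every oEV-EMT library was above every oEV-ctrl library, with 6.11 as the lowest and 5.93 as the highest of the other group (difference of 1.48, p = 0.1 by exact permutation, which is the smallest possible here). The difference was 2.03 without oEV-ctrl 3 and 1.06 without oEV-ctrl 2. The γ genes together had 6.07, 8.43 and 5.87 times the FPKM of the α genes in oEV-EMT and 5.21, 3.46 and 4.97 times in oEV-ctrl. Here too the groups did not overlap (difference of 2.24, exact permutation test, p = 0.1), and the difference was 1.42 without oEV-EMT 2. The α sum includes *Prkaa2*, which was below 1 FPKM in all libraries and did not pass the filter. Between single tested genes, the ratio of *Prkab1* to *Prkaa1* overlapped, and so did that of *Prkag1* to *Prkaa1*. A background share over all genes was not computed for such ratios. Of single tested genes, 18.1% were higher in oEV-EMT without overlap.
The α genes have longer transcripts than *Prkab1* and *Prkag1*, with 4655 and 7969 bases for the longest annotated transcripts of *Prkaa1* and *Prkaa2* against 2089 and 1652. On log2(FPKM + 1), the ratio of *Prkab1* to *Prkaa1* differed by 0.38 between the groups and the ratio of *Prkag1* to *Prkaa1* by 0.63. Both of these gene ratios overlapped between the groups as deposited (exact permutation test, p = 0.2 each). The trend with median annotated transcript length was then removed in each library, an alternative chosen after seeing the data. That length was 4636.5 bases for *Prkaa1*, 808 for *Prkab1* and 696 for *Prkag1*. The 2 differences were then 0.15 and 0.42, again with overlap (exact permutation test, p = 0.4 and p = 0.3). The ratios of the class sums were not adjusted for length.

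**Figure D3:**
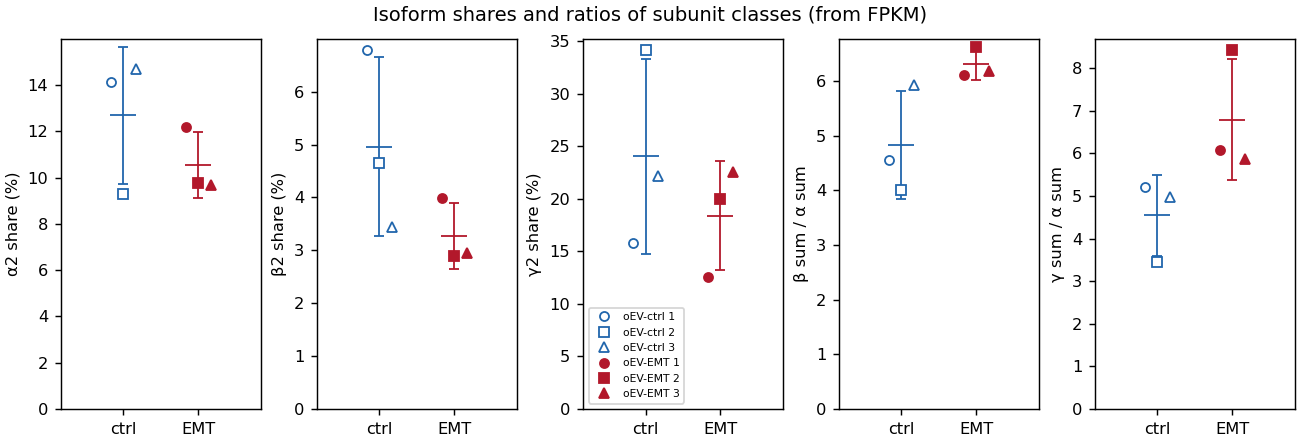
From left to right, the share of *Prkaa2*, *Prkab2* and *Prkag2* in the FPKM of their subunit class in percent, and the ratio of the summed FPKM of the β and of the γ genes to that of the α genes; symbols are single libraries and bars the mean ± SD of 3 libraries. The shares overlap between groups, whereas both ratios are higher in every oEV-EMT library, with the lowest at 6.11 for β and 5.87 for γ.

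The summed FPKM was 6.19 ± 0.533 in oEV-EMT and 6.48 ± 0.395 in oEV-ctrl for the α genes (SD, n = 3 each; exact permutation test, p = 0.6). The difference of the α sums was -0.29 FPKM as deposited, -1.18 after median-of-ratios scaling and -1.48 after upper quartile scaling (exact permutation test, p = 0.1 for each of the latter), and 0.071 after scaling to a common total. More of all genes were lower after median-of-ratios and upper quartile scaling too, as given above. The summed FPKM was 39.0 ± 3.37 and 31.3 ± 7.05 for the β genes (exact permutation test, p = 0.2, n = 3 each). For the γ genes it was 42.0 ± 9.24 and 29.3 ± 5.19 (exact permutation test, p = 0.1; n = 3 each), with 33.4 FPKM in the lowest oEV-EMT library and 33.1 FPKM in the highest oEV-ctrl library. The difference of the γ sums, 12.7 FPKM, was 7.86 FPKM without oEV-EMT 2, and the γ sums overlapped after median-of-ratios and upper quartile scaling.
In blastocyst pools, fewer cells of a type and less RNA per cell cannot be told apart. Of 8 epiblast markers, 4 did not overlap and were higher in oEV-EMT, *Nanog*, *Gdf3*, *Pou5f1* and *Fgf4*, and 0 did so in the other direction. Of all tested genes, 18.1% were higher and 4.34% lower without overlap. The other epiblast markers overlapped, with log2 fold changes of -0.32 for *Sox2*, -0.06 for *Esrrb*, 0.07 for *Klf2* and 0.32 for *Tdgf1*. Of the 8, 0 passed the thresholds, and the lowest limma adjusted p-value was 0.118. The summed FPKM of the 8 was 141 to 177 in oEV-EMT and 69.6 to 121 in oEV-ctrl. That of 10 trophectoderm markers was 3151 to 4774 and 3092 to 4857, and that of 8 primitive endoderm markers 146 to 284 and 192 to 252. Most of the trophectoderm sum was *Krt18* (means of 2556 and 2589 FPKM in oEV-EMT and oEV-ctrl) and *Krt8* (1179 and 1191 FPKM). Most of the primitive endoderm sum was *Dab2* (158 and 183 FPKM), so these sums say little of the other markers. In these 3 lists every gene passed the filter on low values. Without overlap, 1 trophectoderm marker (*Krt19*) and 2 primitive endoderm markers (*Gata4* and *Sox7*) were higher in oEV-EMT and 0 of either list were lower. These shares of the lists were near those of all tested genes. Relative to the median of all genes, 3 trophectoderm markers lay above and 7 below, and 4 primitive endoderm markers lay on each side. Of 8 cumulus and granulosa cell markers, 5 were listed at 0 in all libraries, among them *Fshr*, *Cyp19a1* and *Amh*, and their summed FPKM was 1.32 to 2.24 in oEV-EMT and 0.536 to 0.788 in oEV-ctrl. Most of this sum was *Amhr2*, the 1 tested gene of the list, with means of 1.47 ± 0.538 and 0.581 ± 0.141 FPKM (SD, n = 3 each) and no overlap. The 4 oviduct epithelium markers summed to at most 0.367 FPKM. The 5 blood cell markers summed to 7.30 to 15.6 FPKM in oEV-EMT and 4.52 to 7.78 in oEV-ctrl, most of it *Cd68*, while *Ptprc* and *Hbb-bs* were listed at 0. The part of these cell types in the values of the AMPK genes was not tested.

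Among the upstream kinases, *Stk11* (ENSMUSG00000003068) lies on chromosome 10 from 80115803 to 80130682. Its FPKM was 9.07, 9.30 and 3.52 in oEV-EMT and 5.62, 4.28 and 5.70 in oEV-ctrl. Library oEV-EMT 3 was the lowest of all 6, and the other oEV-EMT libraries were the highest. The means were 7.30 ± 3.27 (SD, n = 3) and 5.20 ± 0.798 (SD, n = 3), with a log2 fold change of 0.33 (SE 0.32, 95% interval -0.38 to 1.05, limma adjusted p = 0.649). Its size rests on single libraries, since it was 0.72 without oEV-EMT 3, 0.13 without oEV-EMT 2 and 0.15 without oEV-EMT 1. After upper quartile scaling it was 0.10.
*Camkk2* (ENSMUSG00000029471), which is transcribed from the minus strand of chromosome 5 (122731170 to 122779409), had 0.404, 0.128 and 0.263 FPKM in oEV-EMT and 0.0949, 0.0483 and 0.145 FPKM in oEV-ctrl. Only the lowest oEV-EMT library fell within the range of oEV-ctrl. The mean was 2.76 times higher in oEV-EMT (exact two-sided permutation test, p = 0.2). With the length of its longest transcript, *Camkk2* rested on about 5.73 to 72.1 steps of depth per library, whereas the other 7 genes rested on at least 102. How many fragments a step holds is not known. With no filter on low values its log2 fold change was 0.20 (adjusted p = 0.691 from limma). The log2 ratio of *Stk11* to *Camkk2* was 4.81 ± 1.25 in oEV-EMT and 5.89 ± 0.586 in oEV-ctrl (SD, n = 3 each; exact permutation test, p = 0.3).

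LKB1 works in a complex with the pseudokinase STRAD, which turns it on and keeps it in the cytoplasm, and the scaffold MO25. In the list of 8 LKB1 partners and other upstream kinases, 7 genes were tested and 0 passed the thresholds. Before adjustment, at p no higher than 0.05, 2 were higher and 0 lower, against 12.8% and 2.55% of all tested genes. The groups did not overlap in 2 higher genes and 1 lower gene, against 18.1% and 4.34% of all tested genes. *Strada*, which encodes STRADα, had 13.7, 16.6 and 13.0 FPKM in oEV-EMT and 5.67, 7.29 and 9.45 FPKM in oEV-ctrl. Every oEV-EMT library was above every oEV-ctrl library, in the values as deposited and after each of 3 other scalings. The means were 14.4 ± 1.89 and 7.47 ± 1.90 (SD, n = 3 each), with a log2 fold change of 0.88 (SE 0.24, limma adjusted p = 0.164). Leaving out single libraries gave 0.72 to 1.05. The related *Stradb*, which encodes STRADβ, had means of 5.63 ± 0.814 and 5.31 ± 1.70 FPKM (SD, n = 3 each) and overlapped.
*Cab39* and *Cab39l* encode the MO25 proteins. *Cab39* had 29.5, 26.5 and 30.0 FPKM in oEV-EMT and 44.4, 34.4 and 32.9 FPKM in oEV-ctrl, lower in every oEV-EMT library, also after the 3 other scalings. Its log2 fold change was -0.36 (SE 0.21, limma adjusted p = 0.437). *Cab39l* overlapped, with 26.3, 38.1 and 44.8 FPKM against 20.5, 31.4 and 34.0 FPKM. *Lamtor1*, a subunit of the lysosomal Ragulator at which AMPK and LKB1 can meet, had means of 94.1 ± 16.1 and 64.0 ± 11.5 FPKM (SD, n = 3 each), without overlap in the deposited values but with overlap after upper quartile scaling.

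**Figure D4:**
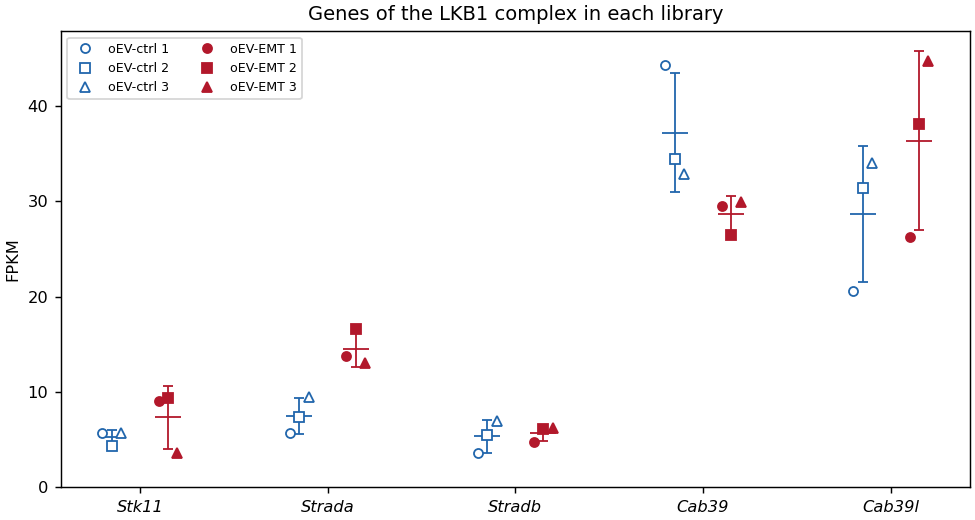
FPKM of *Stk11* and of the genes for its STRAD and MO25 partners in each library, with the mean ± SD of 3 libraries per group. *Strada* is higher in all oEV-EMT libraries (13.0 to 16.6 FPKM against 5.67 to 9.45) and *Cab39* is lower, while *Stk11*, *Stradb* and *Cab39l* overlap.

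Of 15 regulatory partners and phosphatases, 10 were tested, and their median was 0.11 on the log2 scale and -0.06 relative to all genes. Before adjustment, at p no higher than 0.05, 0 were higher and 1 was lower, against 12.8% and 2.55% of all tested genes. The lower gene was *Ppp2ca*, which encodes the catalytic subunit of protein phosphatase 2A. *Ppp2ca* had 18.8, 15.5 and 14.9 FPKM in oEV-EMT and 28.8, 21.8 and 22.4 FPKM in oEV-ctrl. Its highest oEV-EMT value was below its lowest oEV-ctrl value, also after the 3 other scalings, with a log2 fold change of -0.54 (SE 0.22, limma adjusted p = 0.277). The groups did not overlap in 2 higher genes, *Ak1* and *Ppm1a*, and 1 lower gene, *Ppp2ca*, against 18.1% and 4.34% of all tested genes. *Ak1*, an adenylate kinase that makes AMP and ATP from ADP, had means of 2.48 ± 0.944 and 1.37 ± 0.320 FPKM (SD, n = 3 each), without overlap as deposited and with overlap after median-of-ratios scaling. *Ppm1a*, a phosphatase of the PP2C family named after its values were seen, had means of 12.3 ± 0.462 and 10.8 ± 0.336 FPKM (SD, n = 3 each), with a log2 fold change of 0.17 like the median of all genes. *Fnip1*, a partner of folliculin that binds AMPK, had a log2 fold change of -0.40, with overlap.

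LKB1 also activates a family of kinases related to AMPK. Of 12 such genes 3 reached the level for testing, *Sik3*, *Mark2* and *Mark3*, and 6 stayed below 1 FPKM in all libraries. *Sik3*, a salt-inducible kinase, had 3.91, 2.90 and 2.80 FPKM in oEV-EMT and 1.38, 1.17 and 2.52 FPKM in oEV-ctrl. The oEV-EMT libraries were higher throughout, except that the groups overlapped after upper quartile scaling (log2 fold change 0.67, SE 0.25, limma adjusted p = 0.251). *Mark2* was 5.25 FPKM in oEV-EMT 1 and between 1.33 and 2.10 FPKM in the other 5 libraries. *Mark3*, the most abundant of the 3, had a log2 fold change of -0.13, with overlap in the deposited values. Its oEV-EMT values were lower throughout after median-of-ratios and upper quartile scaling. The share of all genes lower without overlap was not computed after these scalings.

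Of 27 genes whose proteins AMPK phosphorylates, 20 were tested and 0 passed the thresholds. The median of the list was 0.21 on the log2 scale and 0.04 relative to all genes, with 12 genes on the upper and 8 on the lower side. Before adjustment, at p no higher than 0.05, 1 was higher and 0 were lower, against 12.8% and 2.55% of all tested genes. Without overlap, 3 were higher and 0 lower, against 18.1% and 4.34% of all tested genes. *Pnpla2*, which encodes the triglyceride lipase ATGL, had 9.27, 5.35 and 4.64 FPKM in oEV-EMT and 2.44, 2.74 and 3.59 FPKM in oEV-ctrl. Each oEV-EMT library was above each oEV-ctrl library under all 4 scalings used, with 2.19 times the mean (log2 fold change 0.88, SE 0.27, limma adjusted p = 0.194). *Mff*, the mitochondrial fission factor, had 95.5, 98.5 and 111 FPKM in oEV-EMT and 59.2, 81.5 and 87.8 FPKM in oEV-ctrl. *Srebf1*, a regulator of fatty acid synthesis, had means of 2.19 ± 0.602 and 1.36 ± 0.0714 FPKM (SD, n = 3 each). Neither gene overlapped as deposited, and both overlapped after upper quartile scaling. *Ulk1*, the kinase that starts autophagy, overlapped, with 14.3 FPKM in oEV-EMT 1 and between 5.46 and 9.33 FPKM elsewhere. *Ppargc1a* was listed at 0 in every library.
Of the 40 tested genes of these 4 lists, 27 (67.5%) had their highest value in library oEV-EMT 1, the deepest one by the estimate. It was the highest library in 37.4% of all tested genes. Among the 6 tested AMPK genes it was highest in 1. The part of this library in the values of the lists was not tested beyond leaving it out. Without it, the median of the 3 AMPK-related kinases relative to all genes went from 0.37 to 0.03.

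**Figure D5:**
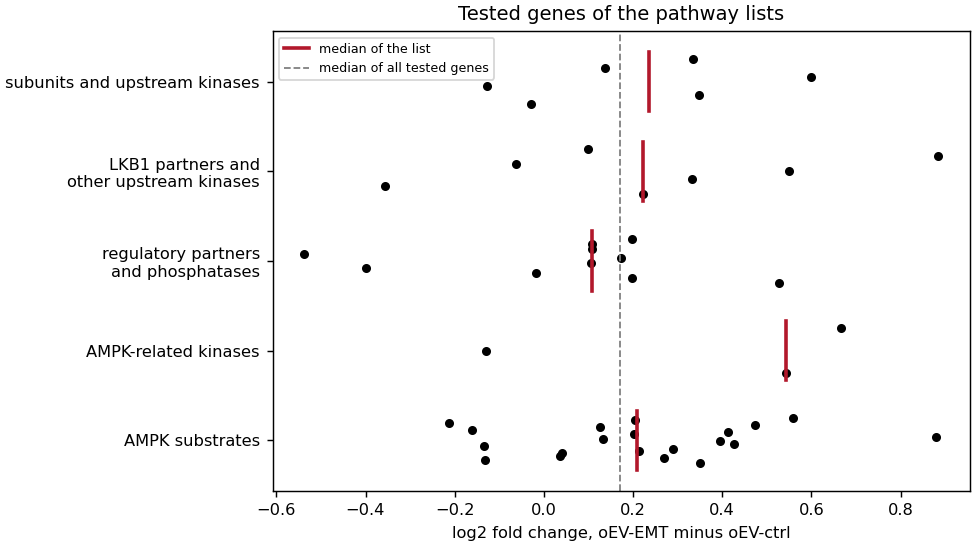
Log2 fold change of each tested gene of the AMPK genes and of 4 lists of related genes, with the median of each list in red and the median of all tested genes, 0.17, as a dashed line. The medians of 4 of the 5 lists lie within 0.1 of the dashed line, and that of the 3 AMPK-related kinases at 0.54.

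Likeness over the 6 libraries was described by Pearson's r of log2(FPKM + 1), which is a description over 6 libraries that share their group means. Among the 28 pairs of AMPK genes, r was highest for *Prkag1* with *Stk11* (0.79) and *Prkab1* with *Prkag1* (0.75), and lowest for *Prkab2* with *Prkag2* (-0.84). *Prkaa1* with *Prkaa2* had 0.13. Among 11924 genes searched, *Lamb2* (0.990) and *Rps7* (0.987) were among the 3 most like *Prkaa1*. *Prkaa2*, below 1 FPKM in every library, was most like *Dnajc3* (0.998), *Trp53bp2* (0.978) and *Ttc30a1* (0.964). *Stk11* was most like *Tmprss2* (0.994), *Gm11605* (0.990) and *Cnpy3* (0.984). How high r would be by chance for the best of so many genes was not tested.

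Reads of the AMPK genes could be shared with few other genes. Searched by identical stretches of 50 bases, transcripts of *Prkaa1*, *Prkaa2*, *Prkab1*, *Prkab2* and *Camkk2* shared 0 with other annotated genes. *Prkag1* shared 28.8% of its stretches with the antisense gene *B130046B21Rik*, *Prkag2* 11.5% with the antisense genes *Prkag2os1* and *Prkag2os2*, and *Stk11* 3.84% with *Cbarp*, which overlaps its locus on the other strand. The highest FPKM of any of these in any library was 1.02, for *Cbarp*. The sources used here do not state whether counting used the strand, so reads of such pairs may not have been told apart.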

How the data were processed

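RNA of 6 pools of 10 blastocysts was sequenced after polyA selection. Per the methods of the study, the authors aligned paired-end reads to the genome (mm10 per the labels), assembled transcripts with StringTie and computed 1 value per gene and library. The aligner is not given in the sources used here. The methods speak of TPM, but the deposited values summed to different totals above 1000000 per library and were analysed as FPKM without further scaling. Ensembl identifiers were named with GENCODE M21 (GRCm38), in which 55141 of 55487 were found.

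The members and the lists of related genes were chosen with earlier results of these data known. Log2(FPKM + 1) of genes with at least 1 FPKM in at least 3 libraries was fitted with limma 3.58.1 (R 4.3.3; trended, robust variance) and adjusted by Benjamini-Hochberg over 11924 genes. A call needed an adjusted p-value no higher than 0.05 together with a log2 fold change no smaller than 1 in either direction. These are the thresholds of the study, which applied them with DESeq2 and not with limma. Ratios and shares were tested by exact permutation of the libraries, two-sided (scipy 1.17.1). The fit was tested on simulated data. Named from each list were up to 4 tested genes with the smallest p-value, and for *Prkaa1*, *Prkaa2* and *Stk11* the 3 genes with the highest r. Further genes (*Stradb*, *Ppm1a*, *Prkag3*, *Ppargc1a* and single markers) were named after their values were seen. Some genes that this rule names are not reported here. FPKM keep no read totals, and depth was estimated from the most frequent step in low values of genes with 1 transcript over 1000 bases. Alternatives changed the pseudocount, filter, scaling, length trend (loess), library weights, variance model, replicate block or the libraries used.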

Additional observations from a re-analysis of the deposited data

How the results depend on the processing

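No AMPK gene passed the thresholds under any alternative in which it was tested. The number of genes called over the whole table went from 0 to 104 with library weights, to 21 with the replicate block, and to between 0 and 16 with 1 library left out (4 without oEV-EMT 1, 1 without oEV-EMT 3 and 16 without oEV-ctrl 3). The near-zero log2 fold change of *Prkaa1* changed sign to 0.048 after scaling to a total of 1000000 and to 0.13 with the length trend removed, and lay between -0.081 and 0.022 with 1 library left out. That of *Prkag2* changed sign to -0.033 with median-of-ratios scaling and -0.094 with upper quartile scaling, and lay between -0.078 and 0.36 with 1 library left out. The difference of the summed α genes turned from -0.29 to 0.071 FPKM after scaling to that total, and was -1.18 and -1.48 FPKM with the other scalings. With a pseudocount of 0.1 the difference of *Prkaa2* was -0.28 in place of -0.13, and that of *Camkk2* 0.85 in place of 0.20. The other measures of subunits kept their direction, with *Prkag1* between 0.34 and 0.79, *Prkab1* between 0.09 and 0.53 and *Prkab2* between -0.28 and -0.025. The cause of these changes was not tested. *Prkaa2* and *Camkk2* had no value with library weights, the block or the length trend removed, since they did not pass the filter there. The same held with the filter of 5 FPKM and with variance neither trended nor robust. *Prkab2* had no value with the filter of 5 FPKM or after scaling to a total of 1000000. Its range leaves these settings out. Same-numbered libraries did not deviate together (correlations of 0.119, -0.0442 and 0.0388 over genes), and not every library was closest to its own number, so the replicate number was not taken as a pairing; the block changed no call among the AMPK genes. Depth limits *Camkk2* most.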
